A study of Mus musculus with 8 samples.

Results

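The 10 genes described here code for proteins of cell junctions. With earlier results of these data known, they were picked by name out of 22963 genes with RefSeq transcripts in the files. They are the cadherins Cdh1 and Cdh2, the adhesion gene Epcam, the claudins Cldn3, Cldn4, Cldn6 and Cldn7, the immunoglobulin-type adhesion genes Jam2 and Pecam1, and the scaffold gene Tjp1. RNA came from Bruce 4 embryonic stem cells, a male C57BL/6J mouse line, after 2 weeks of culture. The cells grew on gelatin or on LN511, a laminin of basement membranes, in a medium labelled Std or in 2i medium, which by its usual meaning holds inhibitors of the kinases MEK and GSK3. This made 4 groups of 2 biological replicate libraries, named below gelatin Std, gelatin 2i, LN511 Std and LN511 2i, all from 1 line. The labelled cell type was checked on the stem cell factor gene Pou5f1, which lay between 949 and 1245 FPKM in the 8 libraries. Other stem cell markers differed by medium. Utf1 held 335 to 432 FPKM in Std and 77.5 to 86.7 in 2i. Zfp42 held 17.0 to 22.0 in Std and 48.0 to 71.5 in 2i, and Sox2 120 to 132 and 148 to 174. Fut4 stayed under 1 FPKM.

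Cadherins hold neighbouring cells together at adherens junctions, where catenins tie them to actin, and E-cadherin, the Cdh1 product, keeps embryonic stem cells in compact colonies. Claudins are small membrane proteins that seal tight junctions in epithelia, anchored inside the cell by scaffold proteins such as ZO-1, the Tjp1 product. Connexins form gap junctions, which link the cytoplasm of neighbours.

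Levels are FPKM, fragments scaled by transcript length and depth, then summed over the RefSeq transcripts of a gene. The files hold no read counts, so the depth is not known. A step is here the commonest low value of FPKM times transcript length, over genes with 1 RefSeq transcript. It would put the libraries at about 2240000 to 2690000 fragments if it is 1 fragment. A smaller number of values lay near 0.5 of that step (75 to 103 a library, against 405 to 474 near the step), so the true step may be smaller and the depth greater. Replicates correlated across genes with a Pearson r of 0.919 to 0.9295, and libraries of different groups with 0.865 to 0.917 (log2(FPKM + 1), genes not being independent). Differences are on the log2(FPKM + 1) scale with a standard error (SE), a scale that understates the change of low genes. Unless another setting is named, each adjusted p is from a limma fit of 10278 genes. A gene is said to rise or fall where this adjusted p is under 0.05. Of the 10 members 8 were tested. Epcam and Pecam1 were left out of the fit, since a group had 1 library listed at 0 beside a replicate of at least 5 FPKM.

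Cldn6, Cldn7 and Cldn3, with Jam2, had the widest spread of group means among the tested members, so the sequences before the claudin start sites are shown here. They are the 250 bases before the RefSeq start, cut at the first annotated exon, 5′ to 3′ in the direction of the gene (RefSeq, GRCm38.p6, the assembly that mm10 names). Capitals mark the E-box CACCTG or its reverse CAGGTG, the core bound by repressors of the Snail and Zeb families, and the GC box GGGCGG or its reverse CCGCCC. For Cldn7, which has a pair of start sites, the downstream one is shown.
Cldn3, chr5:134985964-134986213, plus strand: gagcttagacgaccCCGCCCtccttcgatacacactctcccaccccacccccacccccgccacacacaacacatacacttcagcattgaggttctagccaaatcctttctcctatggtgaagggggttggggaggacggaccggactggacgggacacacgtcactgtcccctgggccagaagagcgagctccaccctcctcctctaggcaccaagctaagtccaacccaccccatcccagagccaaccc
Cldn4, chr5:134946935-134947184, minus strand: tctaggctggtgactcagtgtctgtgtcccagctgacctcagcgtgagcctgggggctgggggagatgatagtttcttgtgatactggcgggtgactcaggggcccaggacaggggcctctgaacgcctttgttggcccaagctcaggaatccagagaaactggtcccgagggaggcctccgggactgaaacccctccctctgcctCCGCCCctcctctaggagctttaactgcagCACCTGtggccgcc
Cldn6, chr17:23679115-23679248, plus strand: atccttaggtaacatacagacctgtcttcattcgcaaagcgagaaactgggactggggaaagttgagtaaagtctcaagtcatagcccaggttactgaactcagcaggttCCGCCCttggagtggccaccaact
Cldn7, chr11:69965171-69965395, plus strand: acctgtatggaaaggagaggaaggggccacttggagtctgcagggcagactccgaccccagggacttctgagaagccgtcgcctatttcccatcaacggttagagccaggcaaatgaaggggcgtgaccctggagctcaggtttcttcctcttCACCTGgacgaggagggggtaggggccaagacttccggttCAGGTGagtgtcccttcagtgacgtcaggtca

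The E-box occurred 2 times before this Cldn7 start, and 1 time each in the full 250 bases of Cldn4 and Cldn6, in the latter past the bases shown. Those of Cldn3 had none, and the upstream Cldn7 start had neither an E-box nor a GC box. A stretch of this length held it in 17.2% of all 32851 promoters, and the GC box, found in the full stretch of each of the 4 starts shown, in 32.7%. None of the 4 held TATAAA or TTTATA, against 12.4% of all. Epcam had 2 E-boxes and Tjp1 none. Cldn3 and Cldn4 are neighbours on chromosome 5, 39279 bases apart with no protein-coding gene between them.

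**Figure D1:**
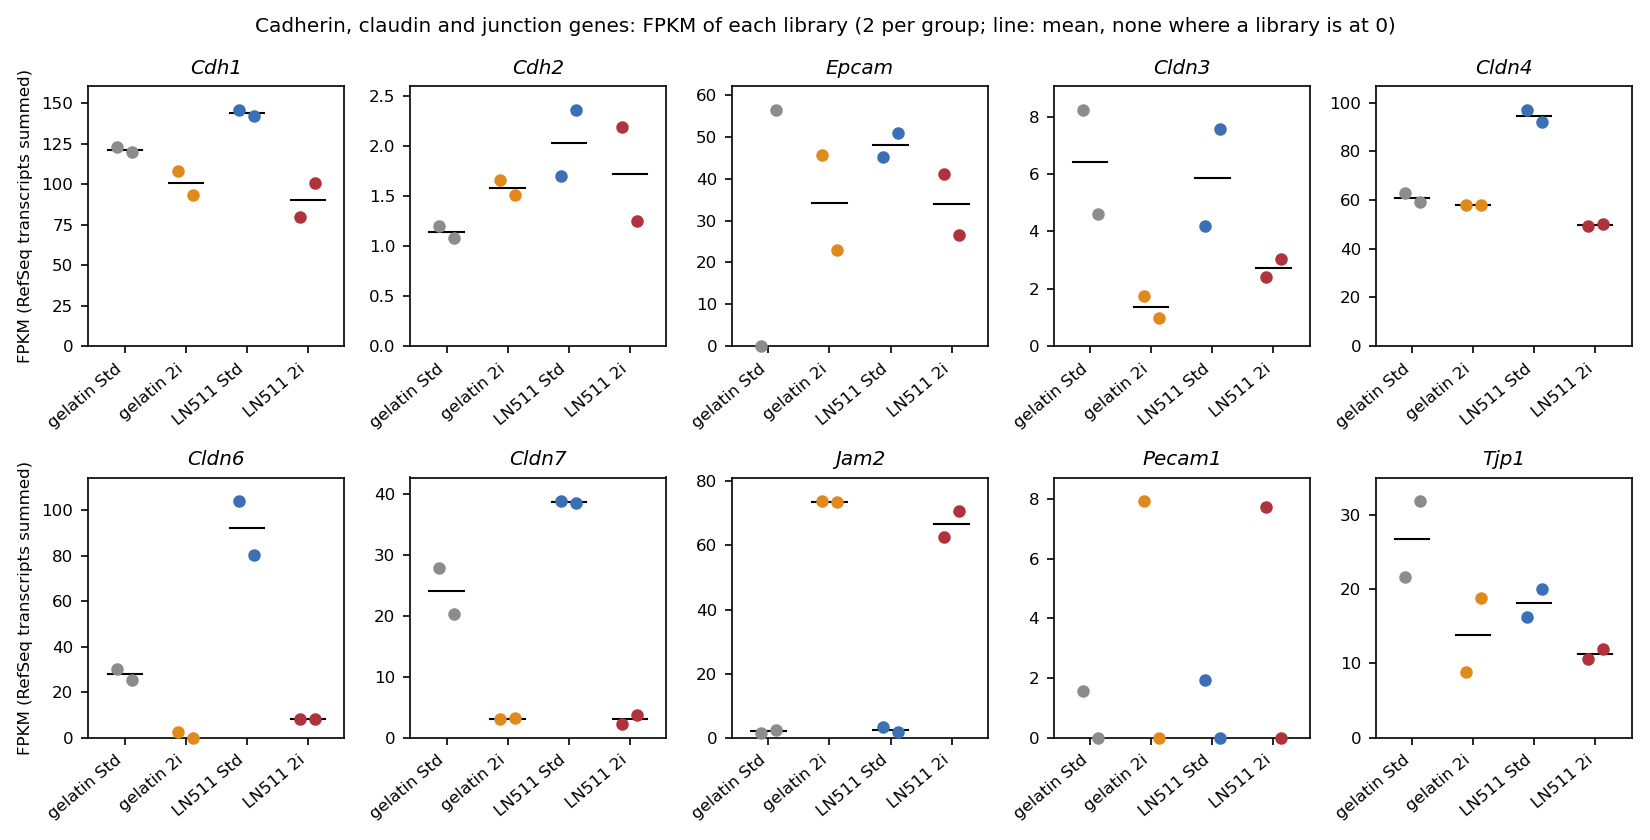
FPKM of the 10 genes (vertical axes from 0) by group; each point is 1 library and the line is the mean of 2, left out where a library is listed at 0. Cldn6 and Cldn7 are high in Std medium, Jam2 is high in 2i medium, and Cdh1 lies between 79.8 and 146 FPKM throughout.

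Medium moved Jam2 up and Cldn6 and Cldn7 down, on both coatings. Jam2 (chromosome 16, 84774123 to 84826380, mm10) codes for an immunoglobulin-type protein of tight junctions. Its Std libraries held 1.54 and 2.44 FPKM on gelatin and 3.21 and 1.80 on LN511. Its 2i libraries held 73.8 and 73.6 FPKM on gelatin and 62.7 and 70.8 on LN511. Every 2i library was far above every Std library, and it rose by 4.66 on gelatin (SE 0.25, limma adjusted p = 1.46e-04) and by 4.30 on LN511 (SE 0.25, limma adjusted p = 1.91e-04). Between coatings the libraries overlapped in Std, and in 2i those on LN511 lay below those on gelatin without passing the test (-0.14, SE 0.25, limma adjusted p = 0.866).

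Cldn6 (chromosome 17, 23679348 to 23682446) codes for a claudin of embryonic epithelia and stem cells. On gelatin its libraries held 30.3 and 25.4 FPKM with Std medium and 2.43 and 0 with 2i. On LN511 they held 104 and 80.3 FPKM with Std and 8.15 and 8.30 with 2i. No neighbouring groups overlapped, in the order LN511 Std, gelatin Std, LN511 2i, gelatin 2i. In 2i it fell by 3.95 on gelatin (SE 0.52, limma adjusted p = 0.00458) and fell by 3.32 on LN511 (SE 0.52, limma adjusted p = 0.00748). The call on LN511 was lost without LN511 Std replicate 1 (limma adjusted p = 0.0533) and with a pseudocount of 0.1 (limma adjusted p = 0.133).

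Between coatings, both LN511 libraries of Cldn6 were above both gelatin libraries in each medium, but the differences did not pass. They were 1.68 in Std (SE 0.52, limma adjusted p = 0.185) and 2.32 in 2i (SE 0.52, limma adjusted p = 0.195). The gelatin 2i libraries, 1 of them at 0, enter the spread that all groups share. Without gelatin 2i replicate 1 or replicate 2 the gene passed in Std (limma adjusted p = 0.0308 and 0.0276).

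Cldn7 (chromosome 11, 69964779 to 69967886), whose protein binds EpCAM, held 27.9 and 20.3 FPKM in gelatin Std libraries against 3.09 and 3.17 in gelatin 2i. On LN511 it held 38.8 and 38.5 FPKM with Std and 2.27 and 3.81 with 2i. All Std libraries were above all 2i libraries, and it fell by 2.59 on gelatin (SE 0.25, limma adjusted p = 0.00148) and fell by 3.32 on LN511 (SE 0.25, limma adjusted p = 4.75e-04). In Std the LN511 libraries were above the gelatin ones, a difference of 0.68 (SE 0.25) that did not pass (limma adjusted p = 0.253), and in 2i the coatings overlapped. Most of the Std signal lay in the transcript of the downstream start, NM_016887, at 13.1 to 38.5 FPKM. The other, NM_001193619, which has the same coding exons, ranged from 0 to 7.20 FPKM over the 8 libraries.

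Cldn3 (chromosome 5, 134986214 to 134987476), like Cldn4 a receptor for a Clostridium perfringens enterotoxin, was the lowest of these claudins in Std medium. It held 8.24 and 4.59 FPKM in gelatin Std libraries and 4.19 and 7.56 in LN511 Std ones. With 2i it held 1.76 and 0.99 FPKM on gelatin and 2.42 and 3.03 on LN511. All 2i libraries were below all Std libraries, and the coatings overlapped in Std. It fell by 1.62 on gelatin (SE 0.38, limma adjusted p = 0.0353), and on LN511 the difference was -0.84 (SE 0.38, limma adjusted p = 0.182). The gelatin call was lost without any 1 library of gelatin Std, gelatin 2i or LN511 2i (limma adjusted p = 0.0536 to 0.154), with low genes unfiltered (limma adjusted p = 0.0606), with a replicate block (limma adjusted p = 0.0609), with doubtful zeros kept (limma adjusted p = 0.0526) and with only the gelatin libraries fitted (limma adjusted p = 0.0829). On this transcript the gelatin 2i values amount to 5.7 and 3.4 of the steps defined above.

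Cldn4 (chromosome 5, 134945123 to 134946934) was the most abundant of these claudins in all libraries but 1. On gelatin it held 62.7 and 59.2 FPKM with Std and 57.9 and 57.8 with 2i. On LN511 it held 97.1 and 91.9 FPKM with Std and 49.4 and 50.3 with 2i. No neighbouring groups overlapped, LN511 Std being highest and LN511 2i lowest. On LN511 it fell by 0.91 in 2i (SE 0.08, limma adjusted p = 0.00104), and on gelatin the difference was -0.07 (SE 0.08, limma adjusted p = 0.618). The difference between these medium effects was -0.83 (SE 0.12) and did not pass over all genes (limma adjusted p = 0.0703).

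In Std medium Cldn4 was higher on LN511 than on gelatin by 0.62 (SE 0.08, limma adjusted p = 0.022). That call was lost without any 1 library of gelatin Std, gelatin 2i or LN511 Std (limma adjusted p = 0.0605 to 0.13), without a trend in the variance (limma adjusted p = 0.0884), with a replicate block (limma adjusted p = 0.0581) and with only the 4 Std libraries fitted (limma adjusted p = 0.0821). In 2i the LN511 libraries were below the gelatin ones, by a difference of -0.21 (SE 0.08, limma adjusted p = 0.392).

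**Figure D2:**
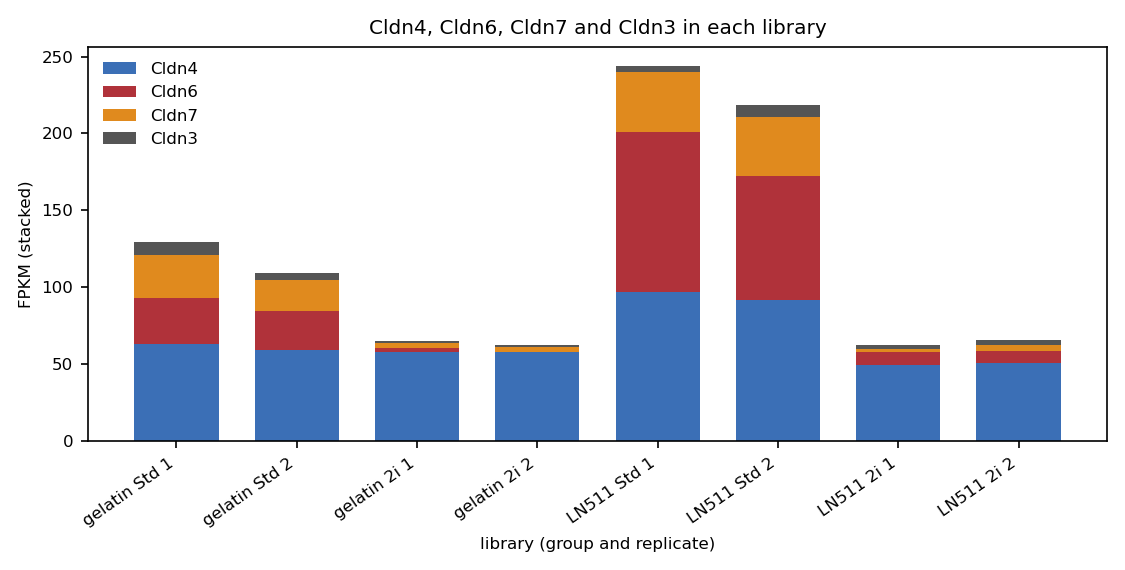
FPKM of Cldn4, Cldn6, Cldn7 and Cldn3 stacked for each library (horizontal axis, group and replicate; vertical axis from 0). The LN511 Std libraries reach 244 and 218 FPKM and the 2i libraries lie between 62.0 and 65.4, mostly Cldn4.

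Summed over these 4 claudins, Std libraries held 129 and 109 FPKM on gelatin and 244 and 218 on LN511, and the 2i libraries 62.0 to 65.4 on either coating. The make-up differed too. Cldn4 was 48.6% and 54.1% of the sum in gelatin Std, 39.8% and 42.1% in LN511 Std, and 76.9% to 93.3% in the 2i libraries. Cldn6 made up 42.6% and 36.8% in LN511 Std, and exceeded Cldn4 in the first of these. The sum leaves out Cldn12, named here after its values were seen, which held 6.15 to 10.4 FPKM over the 8 libraries.

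Of the cadherins, Cdh1 was above Cldn4 in every library and Cdh2 stayed under 2.4 FPKM. Cdh1 (chromosome 8, 106603350 to 106670247) held 146 and 142 FPKM in LN511 Std and 123 and 120 in gelatin Std. With 2i it held 109 and 93.4 FPKM on gelatin and 79.8 and 101 on LN511. In this order of groups only the 2i groups overlapped. On LN511 it fell by 0.68 in 2i (SE 0.13, limma adjusted p = 0.0147), a call lost without LN511 Std replicate 1 or replicate 2 (limma adjusted p = 0.0778 and 0.0677) and with only the LN511 libraries fitted (limma adjusted p = 0.0621). On gelatin the difference was -0.27 (SE 0.13, limma adjusted p = 0.217), and between coatings it was 0.24 in Std (SE 0.13, limma adjusted p = 0.416) and -0.17 in 2i (SE 0.13, limma adjusted p = 0.661).

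Cdh2 (chromosome 18, 16588877 to 16809246), coding for the N-cadherin of neural and mesenchymal cells, held 1.20 and 1.08 FPKM in gelatin Std, the lowest group. On LN511 it held 1.69 and 2.36 with Std and 2.19 and 1.25 with 2i, and 1.66 and 1.50 came from gelatin 2i. The LN511 2i libraries overlapped those of LN511 Std and of gelatin 2i, while the LN511 Std libraries were above the gelatin 2i ones. No difference passed, the widest being 0.49 for LN511 over gelatin in Std (SE 0.29, limma adjusted p = 0.473).

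Tjp1 (chromosome 7, 65296165 to 65527850) held 21.7 and 31.9 FPKM in gelatin Std libraries against 8.87 and 18.9 with 2i. On LN511 it held 16.3 and 20.04 with Std against 10.6 and 11.9 with 2i. The replicates lay far apart on gelatin, and no difference passed. For 2i against Std it was -0.96 on gelatin (SE 0.35, limma adjusted p = 0.117) and -0.64 on LN511 (SE 0.35, limma adjusted p = 0.256). Without gelatin 2i replicate 2 the gelatin difference was -1.47 and passed (limma adjusted p = 0.0442). Most of the sum lay in NM_001163574, and the other transcript, NM_009386, was above 0 in 2 libraries, at 3.75 and 2.32 FPKM.

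Epcam (chromosome 17, 87635979 to 87651127), coding for a homophilic adhesion protein of epithelia and stem cells, was listed at 0 in gelatin Std replicate 1 and at 56.5 FPKM in replicate 2. On LN511 it held 45.1 and 50.9 FPKM with Std and 41.2 and 26.5 with 2i, and on gelatin with 2i 45.6 and 22.9, so that all neighbouring groups overlapped. Pecam1 (chromosome 11, 106654213 to 106715281) codes for CD31 of endothelium and stem cells. It was at 0 in replicate 2 of every group, while replicate 1 held 1.58 FPKM in gelatin Std, 7.93 in gelatin 2i, 1.95 in LN511 Std and 7.73 in LN511 2i. Of its 4 transcripts, NM_008816 carried the signal in gelatin 2i and LN511 Std, and NM_001032378 in the other 2 groups. With such genes kept in the fit, neither passed in any comparison (limma adjusted p = 0.486 to 1).

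**Figure D3:**
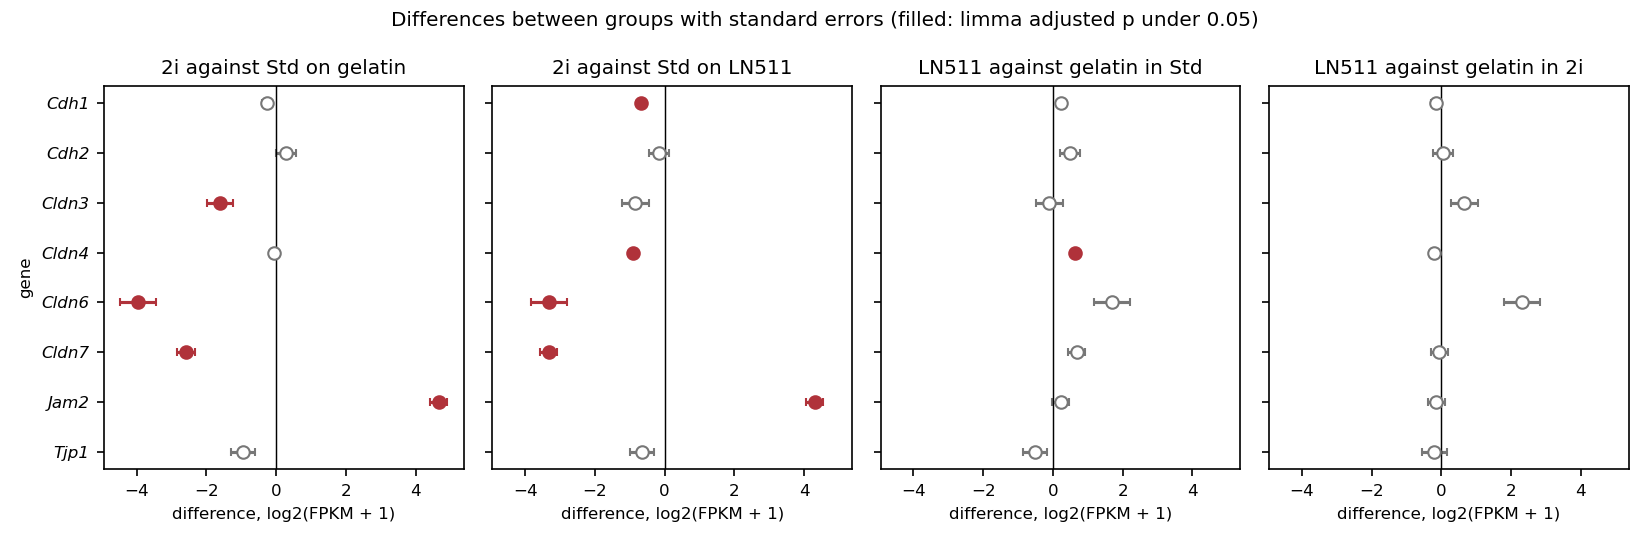
Differences on the log2(FPKM + 1) scale (horizontal axes) with standard errors for the 8 tested genes in 4 comparisons, filled where limma's adjusted p is under 0.05. Jam2 is higher in 2i by 4.66 and 4.30, Cldn6 and Cldn7 are lower on both coatings, and between coatings only Cldn4 in Std is filled.

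The members were chosen with earlier results of these data known, so setting their counts beside those of all genes is no test of them. Counted over the members, 3 of 8 fell and 1 rose in 2i on gelatin, where 7.2% of all tested genes fell and 8.2% rose. On LN511, 4 fell and 1 rose, against 9.95% and 8.58% of all. The median difference of the 8 was -0.62 on gelatin and -0.76 on LN511, and over all tested genes 0.00 and -0.04. For LN511 against gelatin in Std, 1 of 8 rose and 0 fell, against 1.54% and 0.564% of all (2.1% either way). In 2i limma called 0 of 8 between coatings and 0.0195% of all genes. At an unadjusted limma p under 0.05 there were 2 of 8, against 1228 of all 10278. For the interaction of coating and medium limma called 0 of 8 and 0.185% of all, 0.0486% higher and 0.136% lower. At an unadjusted limma p under 0.05 there was 1 of 8, against 1251 of all 10278. Comparisons with a common group share its libraries. In bulk samples such as these, fewer cells of a type and less RNA per cell cannot be told apart.

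Among the other junction genes, connexins had the widest median difference between media on gelatin. In all, 9 lists held 97 genes, of which 60 were tested. In 2i, 16 rose and 11 fell on gelatin (median 0.23), and 12 rose and 17 fell on LN511 (median -0.30). Of all tested genes, 8.2% rose and 7.2% fell on gelatin, and 8.58% rose and 9.95% fell on LN511. These shares hold beside each list count between media below, and the lists too were chosen with earlier results of these data known. Of 6 tested connexin genes, 5 rose and 1 fell on gelatin (median 1.73), and 4 rose and 1 fell on LN511 (median 1.37).

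Gja1, coding for connexin 43, had 80.0 and 92.1 FPKM with Std against 26.8 and 24.5 with 2i on gelatin, and 94.5 and 89.0 against 21.1 and 29.3 on LN511. It fell by 1.71 on gelatin (SE 0.17, limma adjusted p = 0.00156) and fell by 1.84 on LN511 (SE 0.17, limma adjusted p = 9.19e-04). Gjb5 rose by 2.51 on gelatin (SE 0.30, limma adjusted p = 0.00345), from 1.65 and 1.81 to 14.1 and 15.0 FPKM, and its LN511 difference of 1.00 did not pass (SE 0.30, limma adjusted p = 0.0643).

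**Figure D4:**
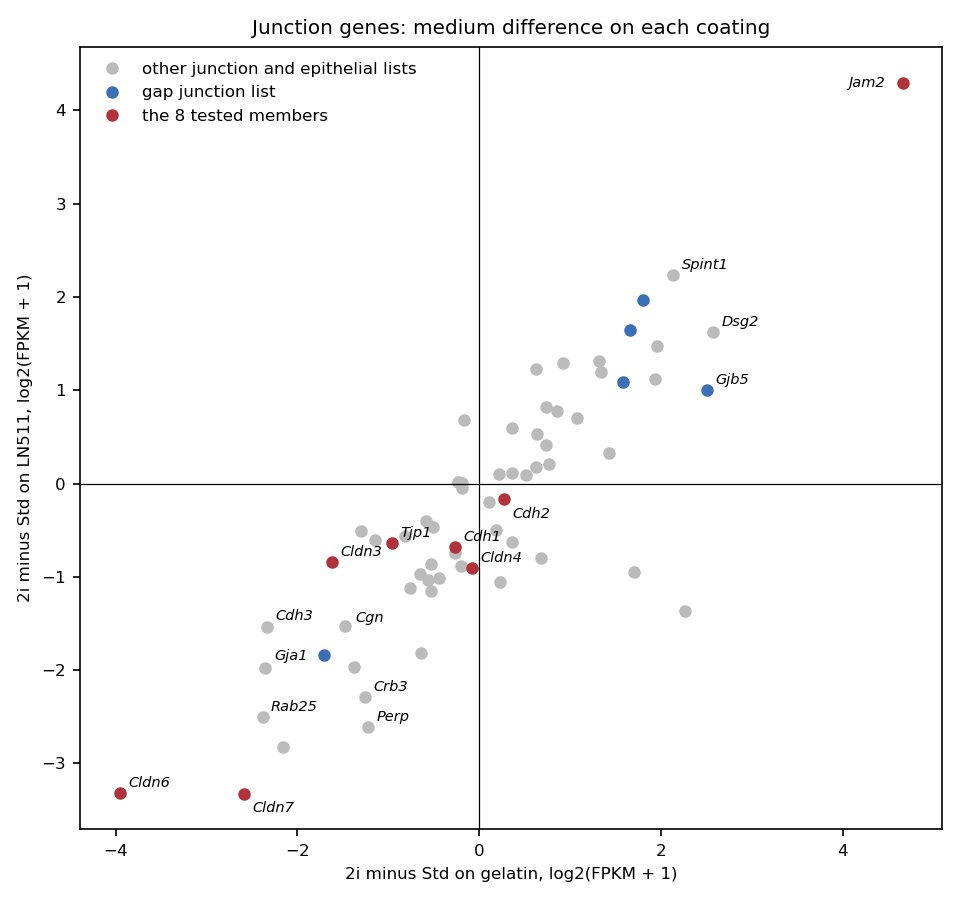
Difference of 2i minus Std on gelatin (horizontal) and on LN511 (vertical), both on the log2(FPKM + 1) scale, for tested junction genes, with members in red and connexins in blue. Jam2 lies at the upper right and Cldn6 and Cldn7 at the lower left; the axes share no libraries but share 1 estimate of each gene's spread.

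Desmosome genes, whose products anchor keratin filaments at the membrane, moved in both directions. Of 6 tested, 1 rose and 2 fell on gelatin, and 1 rose and 4 fell on LN511. The desmosomal cadherin gene Dsg2 rose from 2.11 and 0.89 FPKM to 13.4 and 13.5 on gelatin, and from 4.21 and 3.77 to 16.2 and 12.8 on LN511. The plakophilin gene Pkp2 fell from 12.4 and 18.0 FPKM to 4.06 and 6.46, and from 31.6 and 25.9 to 6.17 and 7.02. These calls were lost for Dsg2 on LN511 without either LN511 Std library or LN511 2i replicate 1 (up to limma adjusted p = 0.0656), and for Pkp2 on gelatin without replicate 2 of gelatin Std or replicate 1 of gelatin 2i (up to limma adjusted p = 0.0938).

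Perp, a desmosome gene of epithelia, held 8.64 and 7.41 FPKM in gelatin Std and 32.4 and 30.4 in LN511 Std, and 2.19 to 5.54 in 2i. It fell in 2i by 1.22 on gelatin (SE 0.29, limma adjusted p = 0.0359) and fell by 2.61 on LN511 (SE 0.29, limma adjusted p = 0.00207). In Std it was higher on LN511 by 1.85 (SE 0.29, limma adjusted p = 0.0349). The gelatin call and the coating call were each lost without any 1 library of gelatin Std, gelatin 2i or LN511 Std (up to limma adjusted p = 0.147 and 0.164).

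Of 17 tested tight junction membrane, scaffold and polarity genes, 3 rose and 3 fell on gelatin, and 1 rose and 3 fell on LN511. Cgn, coding for the ZO-1 partner cingulin, fell from 12.1 and 12.3 FPKM to 3.79 and 3.67 on gelatin and from 19.4 and 23.1 to 7.51 and 5.99 on LN511. The polarity gene Crb3 fell by 1.26 and 2.29, the gelatin call being lost without any 1 gelatin library (up to limma adjusted p = 0.127). Jam3, a relative of Jam2, rose by 1.34 on gelatin, a call lost without either gelatin Std library or replicate 2 of gelatin 2i (up to limma adjusted p = 0.0837). On LN511 Jam3 rose by 1.19, a call lost without replicate 1 of LN511 Std or either library of LN511 2i (up to limma adjusted p = 0.0821).

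Nectins are adhesion proteins beside cadherins. Of 4 tested genes of the nectin list (Nectin1, Nectin2, Nectin3 and the related Pvr), 1 fell on gelatin and 2 on LN511. Nectin2 fell by 0.53 and 0.87, and its gelatin call was lost without any 1 library of gelatin Std, gelatin 2i or LN511 Std (up to limma adjusted p = 0.155). Nectin3 fell by 1.12 on LN511, a call lost without any 1 library of gelatin Std, LN511 Std or LN511 2i (up to limma adjusted p = 0.1495).

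Of 8 tested catenins and cadherin partners, 3 rose on gelatin and 1 on LN511, with 0 lower. The p120-related gene Arvcf rose from 4.40 and 5.27 FPKM to 23.3 and 20.1 on gelatin, and from 7.71 and 8.72 to 24.6 and 24.5 on LN511. Ctnna1, coding for the alpha-catenin that ties cadherins to actin, held 96.2 and 106 FPKM in gelatin Std and 152 to 177 in all other libraries. It rose by 0.62 in 2i on gelatin (SE 0.08, limma adjusted p = 0.00366) and was higher by 0.59 on LN511 in Std (SE 0.08, limma adjusted p = 0.02), the latter call being lost without any 1 library of gelatin Std, gelatin 2i or LN511 Std (up to limma adjusted p = 0.111). Jup, the plakoglobin gene, rose by 1.43 on gelatin in a call lost with each single library left out (limma adjusted p = 0.0524 to 0.208).

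Of 3 other cadherins tested, 1 rose and 1 fell on gelatin, and 0 rose and 2 fell on LN511. Cdh3, coding for P-cadherin, fell from 10.1 and 9.52 FPKM to 1.35 and 0.95 on gelatin and from 5.90 and 7.54 to 2.13 and 1.24 on LN511. Its LN511 call was lost without replicate 2 of LN511 Std or of LN511 2i (up to limma adjusted p = 0.0763). Cdh24, named here after its values were seen, was listed at 0 in both gelatin Std libraries and held 3.83 and 3.78 FPKM in the gelatin 2i ones, a rise that passed (limma adjusted p = 0.00515). On LN511 it fell, from 3.68 and 4.23 to 1.42 and 0.51 FPKM (limma adjusted p = 0.0254), a call lost without either LN511 Std library or replicate 2 of LN511 2i (up to limma adjusted p = 0.107).

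Of 15 other claudins 4 were tested, and limma called 0 of them on gelatin. At an unadjusted limma p under 0.05 there were 3 of 4, against 3081 of all 10278. On LN511 Cldn19 rose and Cldn9 fell, genes named here after their values were seen, and both stayed under 2 FPKM in every library. These calls were lost without any 1 LN511 library for both, and without either gelatin Std library for Cldn9 (up to limma adjusted p = 0.0646 for Cldn19 and 0.134 for Cldn9). Cldn9 lies 137 bases from Cldn6, and no source used here says whether counting used strand.

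Genes of a wider epithelial list moved both ways: of 7 tested, 1 rose and 3 fell on gelatin, and 1 rose and 4 fell on LN511. Spint1, a membrane protease inhibitor gene, rose from 21.5 and 18.1 FPKM to 87.4 and 92.8 on gelatin and from 16.1 and 11.2 to 67.5 and 66.7 on LN511. Its relative Spint2 fell from 109 and 107 FPKM to 47.7 and 49.3 on gelatin and from 114 and 110 to 67.9 and 79.1 on LN511, the latter call being lost without LN511 Std replicate 1 (limma adjusted p = 0.0513). Rab25, a trafficking gene of epithelia, fell by 2.38 and 2.51.

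Of 5 tested genes of a mesenchymal transition list, 2 rose on gelatin and 3 on LN511, with 0 lower. Fn1, the fibronectin gene, rose from 90.8 and 95.6 FPKM to 233 and 235 on gelatin and from 61.4 and 50.2 to 156 and 124 on LN511. Vim rose by 0.63 and 0.53, the LN511 call being lost without LN511 Std replicate 1 or 2 (up to limma adjusted p = 0.0646). The E-box factor gene Zeb1 held 1.87 and 1.72 FPKM in LN511 Std and 5.90 and 5.79 in LN511 2i, a call (limma adjusted p = 0.0461) lost without any 1 library of gelatin Std, LN511 Std or LN511 2i (up to limma adjusted p = 0.164).

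Between coatings in Std, 1.54% of all tested genes were higher on LN511 and 0.564% lower. Of the 60 junction list genes, 4 were higher and 0 lower. Beside Perp and Ctnna1 they included Cdh24. The Cdh24 call was lost without any 1 library of gelatin Std, gelatin 2i or LN511 Std (up to limma adjusted p = 0.116). In 2i limma called 0 of the 60 between coatings, against 0.0195% of all. At an unadjusted limma p under 0.05 there were 7 of 60, against 1228 of all 10278.

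Markers of other cell types moved with some of these values, and their part in the results was not tested. The trophoblast list of 9 genes, which holds the simple epithelial keratins Krt8 and Krt18, summed to 196 to 198 FPKM in LN511 Std, the group where Cldn4, Cldn6, Cldn7 and Perp were highest. Its sum was 28.2 to 33.9 with gelatin Std, 46.0 to 47.2 with gelatin 2i and 39.8 to 47.9 with LN511 2i. Of its 8 tested genes 3 were higher on LN511 in Std, against 1.54% of all. Krt18 was 1 of these, a call lost without any 1 library of gelatin Std or LN511 Std. Its difference stayed between 2.72 and 2.78 with a library left out. In LN511 Std, Krt8 held 87.3 and 93.4 FPKM, Krt18 75.5 and 76.7, and Krt7 10.2 and 7.65. The factor gene Hand1 held 3.12 and 2.35 FPKM there and at most 0.49 in the other groups. Tfap2c and Plet1 were highest in gelatin 2i, at 18.0 and 20.5 FPKM and at 8.47 and 7.73. In LN511 Std they held 10.7 and 10.4, and 6.66 and 4.85. Cdx2 was highest in LN511 2i, at 1.81 and 2.15 against 0.54 and 0.53 in LN511 Std. Gata3 held 0 and 2.98 in LN511 2i and 2.33 and 1.77 in LN511 Std. Elf5 reached 0.19 and was at 0 in 7 of 8 libraries.

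With medium, the mesendoderm list of 6 genes summed to 0.67 to 1.95 FPKM in Std and 5.23 to 11.6 in 2i, with Mesp1 at 0 in all libraries. The fibroblast list of 8 genes summed to 3.54 to 6.84 in Std and 1.54 to 2.19 in 2i, with Postn at 0. Thy1 held 2.04 to 4.45 in Std and 0.23 to 0.51 in 2i, while Pdgfrb held 0 to 0.49 in Std and 0.90 to 1.73 in 2i. The endothelial list, 5 of 7 genes with rows, summed to 4.22 to 6.13 in Std and 1.37 to 3.06 in 2i, most of it Tek, with Emcn at 0 in all and Cdh5 at 0 in 7 of 8 libraries. The blood, primitive endoderm and neuroectoderm lists were, like the trophoblast list, highest in LN511 Std. Blood summed to 2.71 to 2.92 FPKM there and to at most 2.19 in the other groups. Primitive endoderm summed to 4.33 to 4.54 there against at most 2.65, and neuroectoderm to 34.9 to 45.2 against at most 30.0. In the blood list 4 of 5 genes, and in the primitive endoderm list 5 of 7, stayed under 1 FPKM in every library.

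For the 5 members whose group means spanned 1 or more (log2), the nearest tested genes over the 8 libraries were found by the root mean square (RMS) difference of centred log2(FPKM + 1) values. Nearest to Jam2 were Cdx1 (RMS 0.21), Aqp3 (RMS 0.235) and Tfcp2l1 (RMS 0.31). Nearest to Cldn7 were Insm1 (RMS 0.19), Slc27a2 (RMS 0.26) and Tor3a (RMS 0.28). Cldn6, whose means spanned 5.64, had H19 (RMS 0.42), Scarb2 (RMS 0.81) and Plac8 (RMS 0.88). Cldn3 had Larp1b (RMS 0.14), Timm21 (RMS 0.24) and Nle1 (RMS 0.25), and Tjp1 had Nek1 (RMS 0.17), Acer3 (RMS 0.21) and Hpcal1 (RMS 0.22).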

How the data were processed

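RNA of 8 libraries was sequenced, and the authors deposited FPKM values per gene symbol and per transcript. The submitters' processing notes name TopHat2 2.1.1, Cufflinks 2.1.1 and mm10, with roles, settings, strandedness and scaling not given in the sources used here. Every sample column was used. Gene values were sums over RefSeq transcripts, of which 31786 of 32688 matched a symbol (RefSeq, GRCm38.p6). The 21844 assembled transcripts name no gene and were left out. The gene table the authors deposited lists at 0 19 of 56 member values that are above 0 in these sums, so it served as an alternative only, and it has no row for Jam2, Pecam1 and Tjp1.

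Genes at 1 FPKM or more in 2 libraries (11244) were kept. Of these, 966 were set aside because a group had a single 0 beside a replicate of at least 5 FPKM, or was 0 throughout while the mean elsewhere was at least 5. limma 3.58.1 in R 4.3.3 (eBayes with trend) was fitted to log2(FPKM + 1) of 10278 genes with 1 mean per group, and tested on simulated data. Benjamini-Hochberg adjustment was made over all genes in each of 5 contrasts. The members and lists were chosen with earlier results of these data known. Named were all members, up to 3 called genes a junction list by lowest adjusted p with a group mean of 5 FPKM or more, and the 3 nearest genes of members spanning 1 or more; some genes that meet these rules are not reported here. Of 10 members, 6 had a promoter entry. Alternatives were the gene table, a pseudocount of 0.1, no filter, doubtful zeros kept, quantile normalization, no trend, only the libraries compared, a replicate block, and each library left out; for the list genes they were added after seeing the data.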

Additional observations from a re-analysis of the deposited data

Results flagged for a closer look

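The coating difference of Cldn4 ran in opposite directions in the 2 media: both LN511 libraries were above both gelatin libraries in Std and below them in 2i. The interaction was -0.83 and did not pass (limma adjusted p = 0.0703; 0.0955 to 0.222 with a library left out), and it passed with doubtful zeros kept (limma adjusted p = 0.0472) and in the gene table (limma adjusted p = 0.0223). Crb3 crossed in the same way, with an interaction of -1.03 that did not pass (limma adjusted p = 0.382). Gjb5 also crossed, with -1.51 (limma adjusted p = 0.246). The interaction passed for the keratin gene Krt8, at -3.66 (limma adjusted p = 0.0114), a gene flagged after its values were seen. The Krt8 call was lost without any 1 library of gelatin Std or LN511 Std. The interaction passed for Cdh24 as well, at -3.64 (limma adjusted p = 0.0442), a gene listed at 0 in both gelatin Std libraries. That call was lost with each single library left out (limma adjusted p = 0.0679 to 0.195).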

How the results depend on the processing

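No called member or list gene reversed. Settings other than a left-out library lost 13 of the 39 calls of named list genes. Among them were Jup and Perp on gelatin and Nectin3 and Zeb1 on LN511. The list gene paragraphs above give only the losses with a library left out. Of 10 member calls, 4 were lost with some library left out (Cldn3 on gelatin, Cdh1 and Cldn6 on LN511, Cldn4 between coatings in Std), and of 39 calls of named list genes 15. The gene table allowed a test of 2784 genes in place of 10278 and of 2 members, Cdh2 and Cldn4, in place of 8, so its counts are not counts of lost calls. In 2i against Std on gelatin, the count of called genes went from 1583 (15.4% of those tested) to 295 (10.6%) in the gene table, 998 with only the libraries compared and 648 to 1516 with a library left out, and that of members from 4 to 0 in the gene table, which tested none of the 4. On LN511 it went from 1905 (18.5%) to 326 (11.7%), 962 and 861 to 1625, and that of members from 5 to 1 in the gene table, Cldn4, the one of the 5 tested there, and 3 to 5 with a library left out. For LN511 against gelatin in Std, it went from 216 (2.1%) to 135 (4.85%), 6 and 9 to 199, and that of members from 1 to 0 without trend and with only the libraries compared, and 0 to 1 with a library left out. In 2i, the count of 2 became 54 in the gene table (1.94%), 0 with a pseudocount of 0.1, 15 without filter, 42 with doubtful zeros kept, 8 without trend, 0 with only the libraries compared and 0 to 12 with a library left out. For the interaction, 19 became 65 in the gene table (2.33%), 31 without filter, 53 with doubtful zeros kept and 0 to 11 with a library left out, and 0 members became 1 in the gene table and 1 with doubtful zeros kept. Beyond the numbers of genes and libraries tested, the cause of these shifts was not tested.

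Differences that reversed, none of them called, were those of Cdh2 in the gene table, -0.39 on gelatin and 0.22 for the interaction, and the following with a library left out. For Cdh2 on LN511 the range was -0.42 to 0.084. Between coatings in Std it was -0.47 to 0.25 for Cldn3 and -0.0765 to 0.51 for Jam2. Between coatings in 2i it was -0.33 to 0.0008 for Cdh1, -0.20 to 0.31 for Cdh2, -0.34 to 0.22 for Cldn7 and -0.70 to 0.31 for Tjp1. For the interaction it was -0.26 to 1.52 for Cldn6 and -0.18 to 0.83 for Tjp1. Taken over genes, same-numbered replicates did not deviate together (correlations -0.044 to 0.015). Such a value covers many genes at once, so it cannot decide whether the numbers pair the libraries. With a replicate block, calls went from 1583 to 1219 in 2i against Std on gelatin (members 4 to 3, Cldn3 being lost), and from 216 to 80 between coatings in Std (members 1 to 0), from 2 to 0 in 2i and from 19 to 1 for the interaction. Depth limits low values, such as those of Cldn3 (3.4 to 25.6 steps), Cdh2 (12.8 to 30.8 steps) and, in gelatin 2i, Cldn6 (0 and 10.1 steps); steps were not computed for members with several transcripts.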

Other observations

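Epcam and Pecam1 were not the only genes with zeros in single libraries. In the transcript sums, 30 genes were at 0 in 1 library and at 20 FPKM or more in the other 7. There were between 2 and 7 such genes for each library, and 7 in gelatin Std replicate 1, where Epcam was at 0. Including Pecam1, 7 genes were above 0 in replicate 1 of all groups and at 0 in replicate 2 of all, and 5 genes had the opposite pattern.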
